A study of Mus musculus with 8 samples.

Results

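The C/EBP, PU.1 and Gfi1 group of myeloid transcription factors was followed through 10 genes, namely Cebpa, Cebpb, Cebpd, Cebpe, Cebpg, Spi1 (which encodes PU.1), Gfi1, Myb, Myc and Etv6. They were found by their symbols and make up 10 of the 24213 genes measured. Each of the 10 was read by 1 transcript cluster, a set of probes spread along a gene, so no choice between features was needed. The samples are labelled as hematopoietic stem cells (HSCs), sorted from the marrow of individual C57BL/6 mice. In 4 mice both Atg12 alleles were floxed and Mx1-Cre, a recombinase under an interferon-inducible promoter, was present (Atg12flox/flox:Mx1-Cre, called Atg12 cKO below). The other 4 mice were Atg12flox/flox controls without Cre. All 8 mice were given poly(I:C), a mimic of viral RNA that triggers interferon, when 4 weeks old, and cells were taken 2 to 3 months later, from mice aged 3 to 4 months. The sort took Lin- cells with c-Kit+ and Sca-1+ staining and kept those that were CD150+, CD48- and Flk2-, in 2 rounds. Since only Atg12 cKO mice carried Cre, an effect of Cre and an effect of losing Atg12, a gene needed to form autophagosomes, cannot be told apart.

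The C/EBP proteins are leucine-zipper factors that bind DNA as pairs with each other or with related factors. C/EBPα is needed for stem and progenitor cells to enter the granulocyte and monocyte path, C/EBPβ takes over when infection or cytokines demand many granulocytes, and C/EBPε acts late, in granule formation. PU.1 is an ETS factor required for all myeloid cells and for HSC maintenance, and Gfi1 is a zinc-finger repressor that restrains HSC proliferation and favours granulocytes over monocytes. Myb and Myc sustain progenitor growth, and Etv6 is an ETS repressor needed for HSCs to persist in adult marrow.

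Values are log2 signals after RMA, the authors' normalization, and a level can be compared between arrays but not between genes. Array medians over all features lay between 3.76 and 3.92, and 14697 genes had a mean above 3.20, which is the highest signal that Xist or Y-linked genes gave where they should be silent and is called the absent level below. Atg12 read 5.50 ± 0.13 on Atg12 cKO arrays and 6.44 ± 0.08 on control arrays (SD, n = 4 each), a log2 difference of -0.93 (SE 0.10; limma adjusted p = 0.031). The difference passed in 11 of 24 processing alternatives, and in none of the 8 that left out 1 array (limma adjusted p 0.0542 to 0.226). Among genes of the sort gate, Kit (8.36 to 8.56 on Atg12 cKO arrays, 8.49 to 8.70 on control arrays) was above the absent level on all 8 arrays. Cd48 (8.53 to 8.66 on Atg12 cKO arrays, 8.58 to 8.69 on control arrays), whose protein was gated out, was above it as well, whereas Slamf1 (2.73 to 2.98 on Atg12 cKO arrays, 2.22 to 2.88 on control arrays), the gene of CD150, was above it on 0 arrays. Ly6a, the gene of Sca-1, read 4.24, 4.53, 5.02 and 4.86 on Atg12 cKO arrays and 4.08, 4.01, 4.39 and 3.55 on control arrays, with overlap (difference 0.65, SE 0.20; limma adjusted p = 0.991). Flt3, the gene of Flk2, was above the absent level on all 8 arrays, and Mecom, Tek and Esam, genes of HSC identity, had means at or below it. Mpo, Elane, Prtn3 and Ctsg, granule genes of myeloid progenitors, were above it on all 8 arrays. The Slamf1, Cd48, Mecom, Tek and Esam signals thus went against the labelled cell type, and the samples are called by their genotype below. Atg12 cKO array 3 stood apart from the rest on the first principal component (39.5, with the other arrays at -14.8 to 12.2). Xist was high on Atg12 cKO arrays 1, 2 and 4 and control 4, and Y-linked genes were high on Atg12 cKO arrays 3 and 4 and controls 1 to 3, so Atg12 cKO array 4 read both, at 8.12 for Xist and a mean of 5.83 for Y-linked genes. Cells of 1 mouse should not give both, and whether this array holds cells of more than 1 mouse was not tested. Without it all 10 genes kept the direction of their difference, and Cebpb was at 0.40. Sex-linked signal was therefore unequal between the groups.

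All 10 genes were above the absent level on all 8 arrays. None of the 10 passed the test between genotypes (limma over 24213 genes, Benjamini-Hochberg adjusted p under 0.05), where 1 gene in all passed, or 0.00413%. At an unadjusted p under 0.05, 1 of the 10 differed, Cebpb, against 4.94% of all genes. Of the 10 differences, 3 were above 0 and 7 below, with a median of -0.04 against 0.002 for all genes. Cebpb was also the 1 gene of the group for which every Atg12 cKO array lay above every control array, as 1.36% of all genes did. For 0 of the 10 did every Atg12 cKO array lie below every control array, as 1.54% of all genes did.

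**Figure D1:**
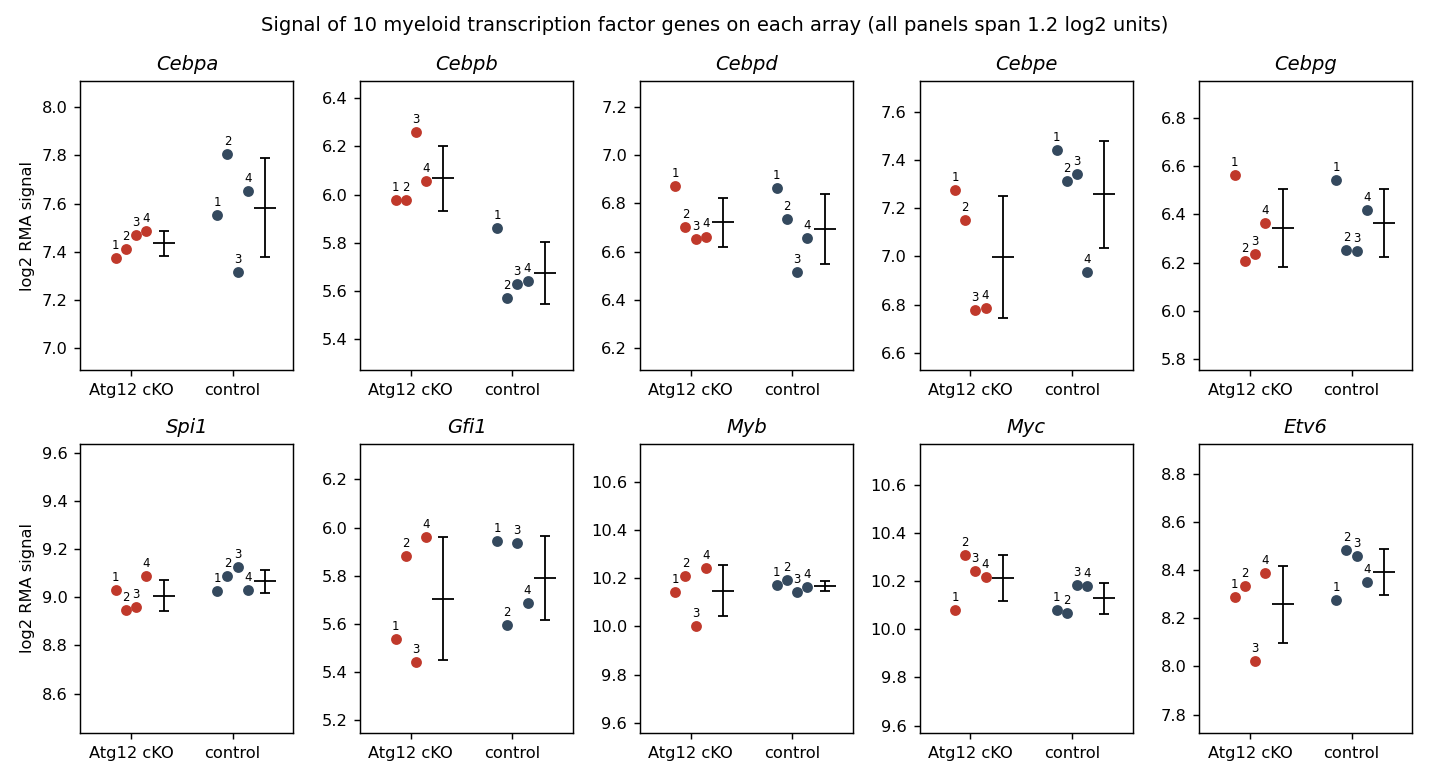
Log2 RMA signal (vertical axes, each spanning the same number of log2 units) of the 10 genes on every array, with Atg12 cKO on the left and control on the right. Points are arrays, numbered by replicate, and the bar beside each group is its mean ± SD (n = 4); the groups stay apart for Cebpb, at 5.98 to 6.26 on Atg12 cKO arrays and 5.57 to 5.86 on control arrays, and overlap for the other 9 genes.

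Cebpb, the member of the family tied to emergency granulopoiesis and to macrophage activation, read 5.98, 5.98, 6.26 and 6.05 on the 4 Atg12 cKO arrays, against 5.86, 5.57, 5.63 and 5.64 on the 4 control arrays. The lowest Atg12 cKO array was above the highest control array, control 1, by less than the range within either group. The means were 6.07 ± 0.13 in Atg12 cKO and 5.67 ± 0.13 in control (SD, n = 4 each). The log2 difference was 0.39 (SE 0.10, 95% interval 0.16 to 0.62), or 1.31-fold with an interval of 1.12 to 1.54. It did not pass the test over all genes (limma, unadjusted p = 0.0032, adjusted p = 0.88), and by unadjusted p it ranked 85 among the 24213 genes. The two-sided exact permutation p was 0.0286, the smallest that 4 against 4 arrays can give. Every gene whose groups do not overlap has this value, so it adds nothing to that separation.

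Cebpb was highest on Atg12 cKO array 3, the array that stood apart, and without it the difference was 0.33 (limma unadjusted p = 0.00771, adjusted p = 0.842). Without Atg12 cKO arrays 3 and 4 together it was 0.30. Where only Y-linked signal was high (3 control arrays and 1 Atg12 cKO array, number 3) the difference was 0.58, and where only Xist was high (2 Atg12 cKO arrays, 1 control array) it was 0.34. With Xist signal as a covariate the difference was 0.47 and with Y-linked signal 0.42. Since the groups did not overlap, the sign in any subset of arrays was fixed beforehand, and these values show only the size.

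The sequence just before the Cebpb start site is shown because Cebpb was the gene whose groups did not overlap. Cebpa and Cebpg are shown with it because the signal of Cebpb relative to each of them, taken within arrays, also separated the groups, as given further on. The 250 bases before the start are from RefSeq (build GRCm38.p6), 5′ to 3′ on the strand of the gene, and 6 of the 10 genes had a promoter in that table.
Cebpb, chr2:167688665-167688914, plus strand: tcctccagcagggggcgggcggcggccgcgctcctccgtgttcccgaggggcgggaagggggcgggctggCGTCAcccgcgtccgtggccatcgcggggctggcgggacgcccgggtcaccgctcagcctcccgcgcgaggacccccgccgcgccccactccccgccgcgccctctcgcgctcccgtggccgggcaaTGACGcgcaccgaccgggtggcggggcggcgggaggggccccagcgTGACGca
Cebpa, chr7:35119043-35119292, plus strand: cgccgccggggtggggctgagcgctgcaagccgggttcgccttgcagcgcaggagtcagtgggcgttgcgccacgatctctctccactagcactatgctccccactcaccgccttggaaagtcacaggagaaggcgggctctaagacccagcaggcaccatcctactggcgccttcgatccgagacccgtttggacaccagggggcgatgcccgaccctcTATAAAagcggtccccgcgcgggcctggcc
Cebpg, chr7:35056567-35056816, minus strand: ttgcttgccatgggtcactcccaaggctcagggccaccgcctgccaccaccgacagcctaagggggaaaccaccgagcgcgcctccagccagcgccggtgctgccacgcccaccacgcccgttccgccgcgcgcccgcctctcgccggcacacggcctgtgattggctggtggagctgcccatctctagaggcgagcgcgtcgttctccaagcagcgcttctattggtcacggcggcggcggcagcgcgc
Capitals mark matches, on either strand, to 4 sets of letters: TGACG (the half-site of CREB and ATF factors), TATAAA (the TATA box), AGGAAG (an ETS core) and TTGCNNAA (a C/EBP site). These sets do not overlap one another in the 3 windows. The Cebpb window held 3 matches to TGACG, beginning 180, 53 and 7 bases before the start, and the Etv6 window held 1. At least 1 was found in 17.8% of 32851 promoter windows of the same length. The Cebpa window held 1 match to TATAAA, 30 bases before the start, as 12.4% of windows did. The Cebpg window held none of the 4. A TTGCNNAA match was found in 1 member, Gfi1, against 9.56% of windows, and an AGGAAG match also in Gfi1 alone, against 29.5%. A match is only a run of letters and was not tested as a binding site.

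Cebpa, which starts the granulocyte and monocyte programme, read 7.37, 7.41, 7.47 and 7.49 on Atg12 cKO arrays, against 7.55, 7.81, 7.32 and 7.65 on control arrays. The Atg12 cKO arrays sat close together (SD 0.05) inside the wider range of the controls (SD 0.21). The log2 difference of -0.15 (SE 0.11, 95% interval -0.39 to 0.10) did not pass (limma adjusted p = 0.9996). It was -0.07 without control 2, the highest array, and -0.24 without control 3, the lowest.

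Cebpe, the factor of late granulocytes, read 7.27, 7.15, 6.78 and 6.78 on Atg12 cKO arrays, against 7.44, 7.31, 7.34 and 6.94 on control arrays. Atg12 cKO arrays 3 and 4 and control 4 were low, and the groups overlapped. The log2 difference, -0.26 (SE 0.15, 95% interval -0.59 to 0.07), had the lowest value of the 10 and did not pass (limma unadjusted p = 0.107). It rested on Atg12 cKO arrays 3 and 4, without which it was -0.05. Its direction was also not shared between arrays of like sex-linked signal, at -0.59 among those with Y-linked signal alone and 0.28 among those with Xist alone.

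Cebpd, an early responder to inflammatory signals, differed by 0.03 (SE 0.10, 95% interval -0.20 to 0.25). It read 6.87, 6.70, 6.65 and 6.66 on Atg12 cKO arrays and 6.86, 6.74, 6.52 and 6.66 on control arrays. Cebpg, a short family member that lacks an activation domain and pairs with ATF4 and other C/EBPs, differed by -0.02 (SE 0.11, 95% interval -0.27 to 0.23). It read 6.56, 6.21, 6.23 and 6.36 on Atg12 cKO arrays and 6.54, 6.25, 6.25 and 6.42 on control arrays. In both genes the groups covered nearly the same range, and the sign of the difference turned when some single arrays were left out. Cebpa and Cebpg lie on the same chromosome with 1 annotated gene, not protein-coding, between them.

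A difference between 2 genes within an array does not change when all log2 values of that array shift by the same amount. Other steps of normalization can still change it. Cebpb relative to Cebpa was higher by 0.54 on the log2 scale in Atg12 cKO, and relative to Cebpg by 0.42, with every Atg12 cKO array above every control array in both. Relative to Cebpd it was higher by 0.36 and relative to Cebpe by 0.65, with overlap between the groups. These 4 comparisons were made after the values were seen and were not tested.

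Spi1 read 9.03, 8.95, 8.96 and 9.09 on Atg12 cKO arrays, against 9.03, 9.09, 9.13 and 9.03 on control arrays. Its pooled within-group SD, 0.06, was the lowest of the 10 genes, where the median of all genes was 0.175. The log2 difference of -0.06 (SE 0.08) had a 95% interval of -0.25 to 0.12, that is 0.844 to 1.09 times the control signal.

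Gfi1 read 5.54, 5.88, 5.44 and 5.96 on Atg12 cKO arrays, against 5.94, 5.60, 5.94 and 5.69 on control arrays. Both groups split into high and low arrays, and the log2 difference was -0.09 (SE 0.14, 95% interval -0.39 to 0.22). It was 0.002 without Atg12 cKO array 3.

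Myb read 10.14, 10.21, 10.003 and 10.24 on Atg12 cKO arrays, against 10.17, 10.19, 10.14 and 10.17 on control arrays. The control arrays were close together (SD 0.02), the Atg12 cKO arrays less so (SD 0.11), with array 3 the lowest. The log2 difference was -0.02 (SE 0.09, 95% interval -0.21 to 0.18).

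Myc read 10.08, 10.31, 10.24 and 10.22 on Atg12 cKO arrays, against 10.08, 10.07, 10.19 and 10.18 on control arrays. Atg12 cKO arrays 2, 3 and 4 were above all controls and array 1 was not. The log2 difference was 0.08 (SE 0.09, 95% interval -0.11 to 0.28; two-sided exact permutation p = 0.143).

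Etv6 read 8.29, 8.33, 8.02 and 8.39 on Atg12 cKO arrays, against 8.27, 8.48, 8.46 and 8.35 on control arrays. Only Atg12 cKO array 3 was below all controls. The log2 difference was -0.13 (SE 0.10, 95% interval -0.37 to 0.10), and -0.06 without that array. Across the 9 genes other than Cebpb, unadjusted limma p lay between 0.107 and 0.849 and the intervals between -0.59 and 0.28.

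**Figure D2:**
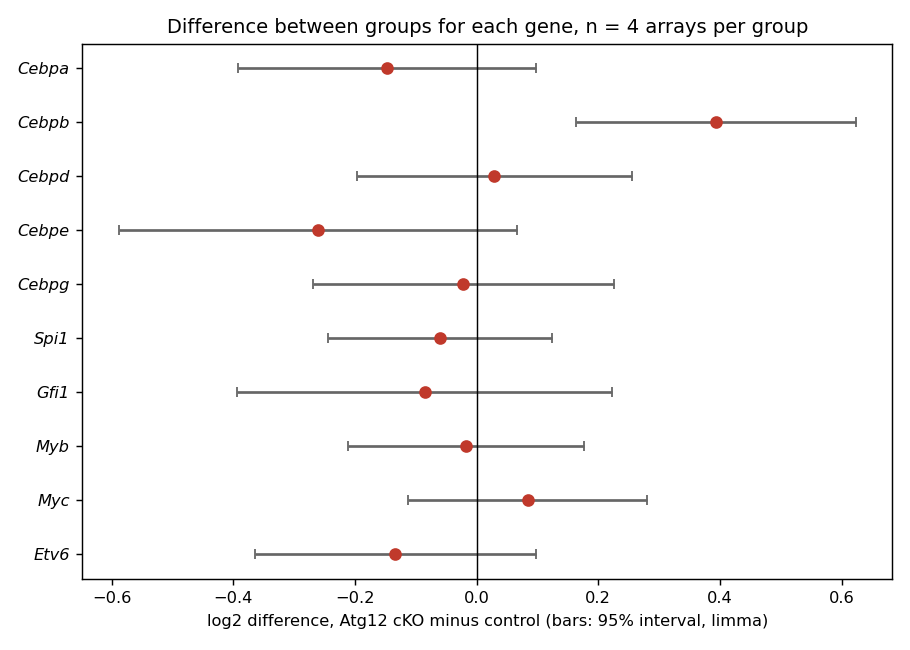
Log2 difference, Atg12 cKO minus control (horizontal axis), for each of the 10 genes, with its 95% interval from limma (n = 4 arrays per group). The interval of Cebpb, 0.16 to 0.62, lies above 0 before any adjustment for the number of genes, and the other 9 intervals include 0.

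The 10 genes did not vary as a block across arrays. Among their 45 pairs, Pearson's r over the 8 arrays was above 0.7 for 3 pairs and below -0.7 for 1, as a description of arrays that share 1 normalization. The pair below was Cebpb and Etv6 (r = -0.81, Spearman's rho = -0.69), at -0.86 for deviations from the group means. Over the 6 arrays left without control 2 and Atg12 cKO array 3 it was -0.44, so it rested in part on those arrays. Myb and Etv6 had r = 0.78 (rho = 0.48), which was 0.07 over the 6 arrays without Atg12 cKO arrays 3 and 4. For Cebpd and Cebpg it was 0.73 (rho = 0.60), and -0.005 over the 6 arrays without Atg12 cKO array 1 and control 1. The ETS pair Spi1 and Etv6 had r = 0.74 (rho = 0.79), and 0.95 over the 6 arrays without control 3 and Atg12 cKO array 2. In each pair the 2 arrays left out were those farthest from the median of the first gene. For Spi1 and Etv6, Atg12 cKO array 3, where Etv6 was lowest, therefore stayed in.

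**Figure D3:**
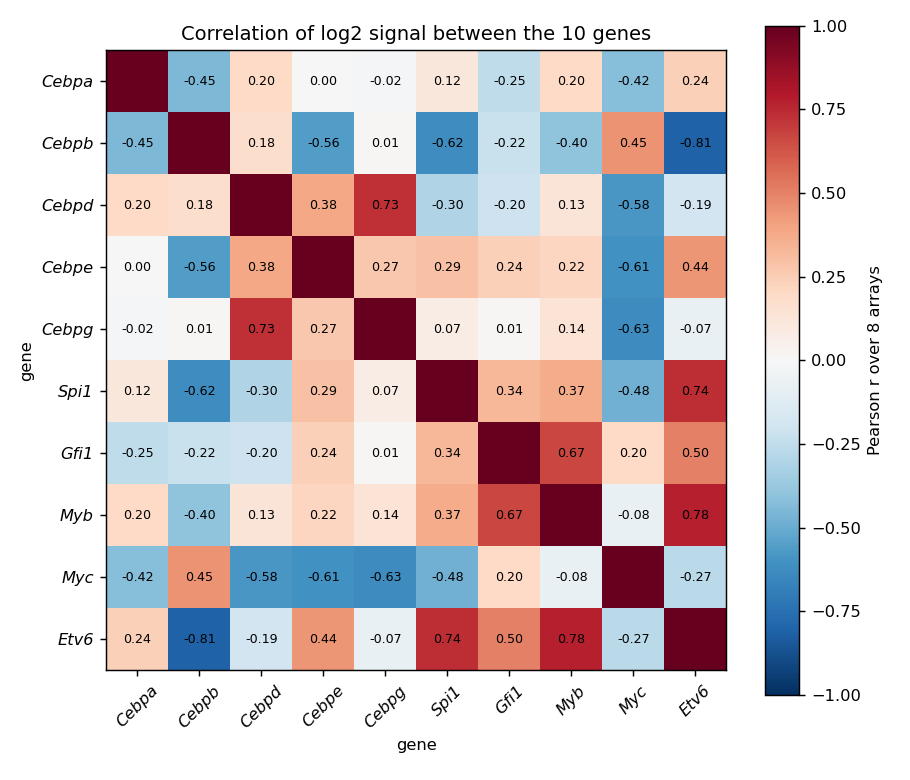
Pearson's r of log2 signal over the 8 arrays for each pair of the 10 genes (both axes list the genes, colour and number give r). Cebpb and Etv6 stand at -0.81, Myb and Etv6 at 0.78, Spi1 and Etv6 at 0.74 and Cebpd and Cebpg at 0.73.

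Among 12278 other genes above the absent level, the one most like each member was taken by Pearson's r over the 8 arrays. It was Ruvbl1, a helicase of chromatin remodelling complexes, for Cebpb (r = 0.98, rho = 0.95, and 0.92 for deviations from the group means). For Myb it was Gins1, a subunit of the replicative helicase (r = 0.995), and for Myc the mitochondrial chaperone gene Dnaja3 (r = 0.99). The others were Zfp26 for Cebpa, Tsacc for Cebpd, Ddrgk1 for Cebpe, Tcerg1l for Cebpg, Eya2 for Spi1, Naa35 for Gfi1 and Mtrf1 for Etv6. Over the 10 pairs r lay between 0.933 and 0.995, rho between 0.857 and 1, and r over 6 arrays between 0.769 and 0.997. Each gene was picked as the highest of 12278 over only 8 arrays, so a high r was bound to appear. The values of rho and of r over 6 arrays reuse the same arrays. Whether any of these pairs varies together in other samples was not tested. The share of these genes with r above 0.9 lay between 0.0326% and 1.10% across the 10 members.

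Genes that act with the 10 factors, or are known to be regulated by them, were read through 9 lists holding 109 distinct genes. None of the 109 passed over all genes (limma), and 11 differed at an unadjusted p under 0.05, where 4.94% of all genes did. Every Atg12 cKO array was above every control array for 3 of the 109, against 1.36% of all genes, and below for 4, against 1.54%. Of the differences, 51 were above 0 and 58 below, and their median was -0.01 against 0.002 for all genes.

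Targets of C/EBP factors and PU.1 held the 2 highest differences of the 109 genes, those of Cybb and Lcn2. Of 20 genes, 0 passed in either direction, 12 differences were above 0 and 8 below, and their median was 0.03. Cybb, which encodes the catalytic part of the oxidase that phagocytes use against microbes, read 7.78, 7.45, 7.62 and 7.67 on Atg12 cKO arrays, against 6.60, 6.53, 6.70 and 7.19 on control arrays. The groups did not overlap, and control 4 was the highest control. The log2 difference was 0.87 (SE 0.15; limma adjusted p = 0.478), which did not pass. It passed in 1 of 24 alternatives, without control 4 (1.02, limma adjusted p = 0.0369), and not in the other 23 (limma adjusted p 0.0601 to 1.00). Control 4 was the control nearest to the Atg12 cKO arrays. It was also the only control with high Xist signal, which Atg12 cKO arrays 1, 2 and 4 shared. Without it, Xist was thus high in Atg12 cKO only. Over the 16 alternatives other than single omitted arrays, sex-linked covariates among them, the Cybb difference was 0.72 to 0.88. The part of sex-linked signal in it was not tested further. Lcn2, an iron-binding granule protein that C/EBP factors induce, read 7.64, 7.44, 8.26 and 7.69 on Atg12 cKO arrays, against 6.95, 7.02, 7.42 and 7.01 on control arrays. Its groups did not overlap either, and the difference was 0.66 (SE 0.17; limma adjusted p = 0.88).

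The other targets in that list lay close to 0 or had overlapping groups. The primary granule genes Mpo, Elane, Prtn3 and Ctsg, which C/EBPα, PU.1 and Myb drive in progenitors, differed by 0.02, 0.04, 0.03 and 0.01. The receptor genes Csf3r, Csf1r, Csf2ra and Csf2rb differed by -0.15, 0.20, -0.0009 and 0.26. Among late granule genes, on which C/EBPε acts, Camp differed by -0.23 (SE 0.35, 95% interval -0.998 to 0.55) and Ngp by -0.36 (SE 0.41, 95% interval -1.27 to 0.54), so neither showed a direction, and Ltf was above the absent level on 0 arrays. Apart from Cybb and Lcn2, the genes in this paragraph were chosen after their values were seen.

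Partners and opponents of PU.1 held 12 genes, of which 0 passed, with 4 differences above 0 and 8 below and a median of -0.07. Gata2, an HSC factor that opposes PU.1, read 5.51, 5.55, 5.49 and 5.25 on Atg12 cKO arrays, against 5.57, 6.52, 6.27 and 5.97 on control arrays. Every Atg12 cKO array was below every control array, by little in the case of control 1, and the difference was -0.64 (SE 0.18; limma adjusted p = 0.949). Id2, an inhibitor of E proteins that Gfi1 represses, differed by -0.77 (SE 0.24; limma adjusted p = 0.991), with overlap. Irf8, a monocyte factor that pairs with PU.1 and is repressed by Gfi1, read 8.59, 8.15, 8.11 and 8.42 on Atg12 cKO arrays, against 8.06, 7.97, 7.88 and 8.005 on control arrays. The groups did not overlap, and the difference was 0.34 (SE 0.12; limma adjusted p = 0.991). Among all 9 listed Gfi1-repressed genes the median was -0.01, with 4 differences above 0 and 5 below, so Id2 and Irf8 lay on opposite sides.

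The relatives and corepressors of Gfi1 had a median of -0.02 over 9 genes. Gfi1b, the paralog active in erythroid cells and megakaryocytes, read 5.06, 4.60, 5.15 and 5.02 on Atg12 cKO arrays, against 5.48, 5.63, 5.63 and 5.07 on control arrays. Control 4 fell among the Atg12 cKO arrays, and the difference was -0.49 (SE 0.15; limma adjusted p = 0.991). Zbtb17, encoding Miz1, a partner of both Gfi1 and Myc, differed by -0.22 (SE 0.10). Of 16 further ETS genes, 3 differences were above 0 and 13 below, with a median of -0.05; Erg was at -0.19 (SE 0.10) and Etv5 at -0.41 (SE 0.22), and 0 passed.

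The C/EBP partners and regulators had a median of -0.08 over 12 genes, with 5 above 0 and 7 below. Dbp, a leucine-zipper factor of the circadian PAR family, read 4.16, 4.41, 3.75 and 4.36 on Atg12 cKO arrays, against 4.63, 4.67, 4.66 and 4.63 on control arrays. The controls were close together and all Atg12 cKO arrays lay below them, with a difference of -0.48 (SE 0.14; limma adjusted p = 0.949). Tef, of the same family, differed by -0.26 (SE 0.16).

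The Myc network of dimer partners and antagonists had a median of -0.11, with 4 of 13 differences above 0 and 9 below, and of -0.08 without Mycn, named after its value was seen, whose mean was below the absent level. Mxd3, which competes with Myc for Max, was at 4.28 ± 0.20 in Atg12 cKO and 4.64 ± 0.23 in control (SD, n = 4 each; difference -0.36, SE 0.14, limma adjusted p = 0.991). Listed Myc targets lay mostly above 0, at 15 of 16, but none had a large difference: the median was 0.04, Pa2g4 was at 0.10 (SE 0.10) and the cyclin gene Ccnd2 at -0.19 (SE 0.11). Among Myb relatives and coactivators, Mybl2, a cell cycle paralog of Myb, differed by 0.20 (SE 0.13) and the coactivator gene Ep300 by -0.15 (SE 0.10), and the median over 8 genes was -0.06.

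**Figure D4:**
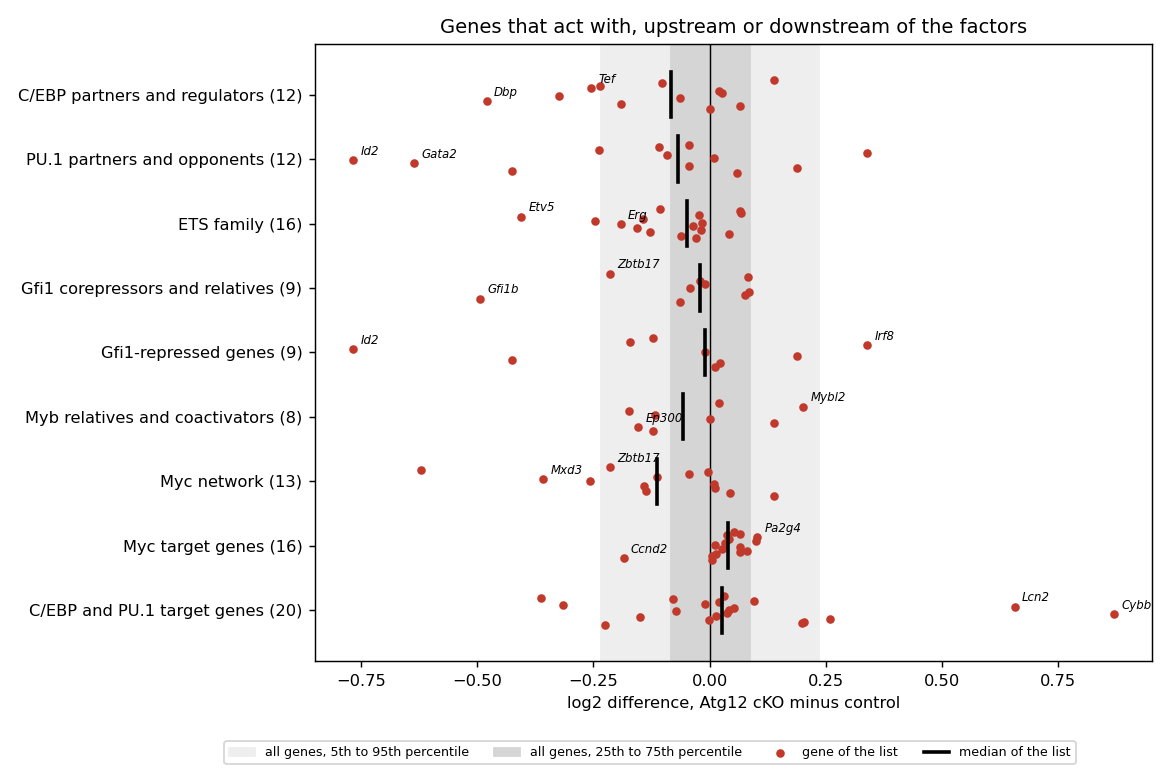
Log2 difference, Atg12 cKO minus control (horizontal axis), of each gene in the 9 lists (rows, with the number of genes), with a bar at the list's median and bands for the spread of all genes. Cybb at 0.87 and Lcn2 at 0.66 lie far to the right, and Id2 at -0.77, Gata2 at -0.64 and the unlabelled Mycn at -0.62 far to the left, while the medians lie between -0.11 and 0.04.

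Markers of other blood cells were summed over each list on the linear signal scale. None of these markers passed the test over all genes (limma), so the sums describe the arrays only. The 7 mast cell and basophil markers summed to 548 to 805 on Atg12 cKO arrays and to 838 to 1171 on control arrays. All 7 had a mean above the absent level and a difference below 0. The 7 megakaryocyte markers summed to 113 to 136 on Atg12 cKO arrays and to 147 to 195 on control arrays, with Ppbp above the absent level on 0 arrays. The differences of Gp1bb, Vwf and Gp9 in that list were 0.01, -0.02 and -0.06. Both sums were thus lower on every Atg12 cKO array. Gata2 and Gfi1b are expressed in those lineages, and Gata2 in HSCs as well. A link between these 2 genes and the sums was not tested.

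The 10 neutrophil and macrophage markers summed to 1841 to 3681 on Atg12 cKO arrays and 2993 to 4278 on control arrays, with overlap. S100a8 made up 71.2% of this sum in Atg12 cKO and 70.2% in control. Of the 10, 6 had a mean above the absent level, and Ly6g, Retnlg and Mmp9 were above the absent level on 0 arrays. The 8 T and NK cell markers summed to 1713 to 1798 on Atg12 cKO arrays and to 1916 to 2026 on control arrays, with Cd3d, Cd3g, Cd4, Klrb1c and Gzma above it on 0 arrays. The 6 measured erythroid markers summed to 325 to 501 on Atg12 cKO arrays and to 241 to 309 on control arrays, with Klf1 above it on 0 arrays. The groups overlapped for the 8 B cell markers, at 191 to 217 in Atg12 cKO and 212 to 217 in control. They also overlapped for the 7 endothelial and stromal markers, at 176 to 194 in Atg12 cKO and 169 to 212 in control. The T and NK cell sum was lower on every Atg12 cKO array, but 1 gene, Nkg7, made up 97.0% of it in Atg12 cKO and 97.4% in control, and of the 8 differences 4 were above 0 and 4 below. The erythroid sum was higher on every Atg12 cKO array, and Tfrc, the transferrin receptor gene, made up 87.9% of it in Atg12 cKO and 82.2% in control. In sorted bulk cells, fewer cells of a type and less RNA per cell cannot be told apart. The part of these other cells in the values of Cebpb, Cybb, Lcn2, Gata2, Gfi1b and Irf8 was not tested.

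**Figure D5:**
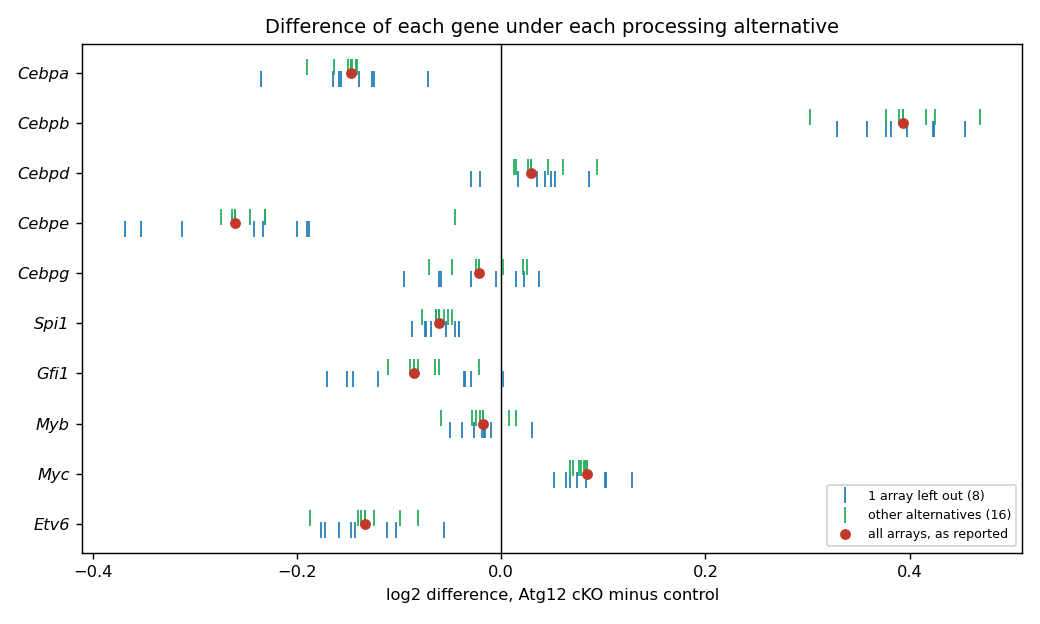
Log2 difference, Atg12 cKO minus control (horizontal axis), of the 10 genes with all arrays (points), with 1 array left out (8 ticks per gene) and under 16 other processing alternatives (ticks). Cebpb stayed between 0.30 and 0.47, Cebpe ran from -0.37 to -0.05, and Cebpd, Cebpg, Gfi1 and Myb crossed 0.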

How the data were processed

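The arrays were Affymetrix Gene ST 1.0, per the series' design, hybridised with RNA amplified by the Ovation Pico WTA system, per the labels' protocols. The deposited values are log2 signals per transcript cluster, and the authors' normalization was RMA; the submitters' processing notes name RMA and limma without versions. The annotation and genome build are not given in the sources used here. Both deposited tables held identical values over 28853 features. The 1494 features without a symbol were left out, and the feature of highest mean was kept per symbol, giving 24213 genes. Atg12 cKO was set against control by lmFit and eBayes (limma 3.58.1, R 4.3.3), without filter or covariate, and p-values were adjusted by Benjamini-Hochberg over all genes, with a threshold of 0.05. Exact permutation tests of single genes were two-sided, over 70 assignments of the arrays. The procedure was tested on simulated data with 24213 genes. It recovered 19 of 67 genes changed by 0.5 log2 units, 64 of 67 changed by 1 and 66 of 66 changed by 2. It also called 12 unchanged genes. Changes of 0.5 were thus mostly missed there.

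The members and lists were chosen with earlier results of these data known. Named besides the members were Atg12, the genes of the sort gate, sex-linked genes, the 2 genes of smallest p per list among those above the absent level on all arrays of a group, and the gene most like each member, leaving out predicted gene models, olfactory and vomeronasal receptors and small RNAs. Members of the marker lists that lay at the absent level are named too, apart from some not reported here, and any further gene is pointed out where it appears. The labels give each sample as 1 mouse, which the sex-linked signal of Atg12 cKO array 4 puts in doubt, and precision is limited by 4 arrays per group. Alternatives were omission of arrays, a block for the replicate number, feature choice, signal filters, scaling, eBayes options, array weights, sex-linked covariates and another threshold. Deviations of same-numbered arrays correlated at -0.10 to 0.12 over all genes. This showed no pairing by number, but cannot exclude one that touches few genes. All 10 members matched a RefSeq symbol.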

Additional observations from a re-analysis of the deposited data

Results flagged for a closer look

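Of 94 groups of 4 arrays examined (47 genes, each in Atg12 cKO and in control), 10 held an array far from the other 3 by Dixon's criterion, which chance gives for about 5% of groups. None of the 10 transcription factor genes was among them. Gata2 was at 5.25 on Atg12 cKO array 4, against 5.49 to 5.55 on the other Atg12 cKO arrays. Mtrf1, the gene most like Etv6, was at 4.94 on Atg12 cKO array 3, against 5.38 to 5.45 on the others. Among controls, Erg was at 7.16 on control 2 (others 6.86 to 6.91), Lcn2 at 7.42 on control 3 (others 6.95 to 7.02) and Flt3, a gene of the sort gate, at 4.78 on control 1 (others 5.56 to 5.61). The other 5 concern sex-linked transcripts on control 4, with Xist at 9.50 (others 2.42 to 3.00), Ddx3y at 1.88 (others 6.08 to 6.54), Kdm5d at 2.52 (others 5.07 to 5.56), Uty at 2.15 (others 5.05 to 5.53) and Eif2s3y at 1.73 (others 7.10 to 7.14).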

How the results depend on the processing

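Over 24 alternatives, 0 of the 10 genes passed in any. Of 240 values, 228 kept their direction, and 6 of the 10 genes kept it throughout. Much of this was fixed beforehand. With 1 feature per member, feature choice and signal filters left each difference as it was. So did eBayes options, the replicate block, the second deposited table and another threshold. For Cebpb no omission of arrays could turn the sign, as its groups did not overlap. Cebpb lay between 0.30 and 0.47 (limma adjusted p 0.554 to 1.00). Sign changes without Atg12 cKO replicate 1, 2 or 3 or control replicate 1 or 3 had these ranges over single omitted arrays: Cebpd -0.030 to 0.086, Cebpg -0.095 to 0.037, Gfi1 -0.17 to 0.0020 and Myb -0.050 to 0.031. Without Atg12 cKO replicates 3 and 4 together Cebpg was at 0.021 and Myb at 0.0077, with quantile normalization repeated Cebpg was at 0.0021, and with array weights Cebpg was at 0.026 and Myb at 0.014; the cause was not tested. The count of all genes called, 1 with all arrays, was 0 without Atg12 cKO replicates 3 and 4 together, with arrays centred on their median, and with a covariate for Y-linked signal or for Xist, and 0 to 3 with 1 array left out; Atg12 was not called in any of these 8. It was also 0 with the replicate number as a block, where Cebpb had a limma adjusted p of 0.903. Same-numbered arrays are not known to share more than the number. The median of all genes stayed within 0.0128 of 0. List medians changed sign for Gfi1 corepressors (-0.05 to 0.02), Gfi1-repressed genes (-0.14 to 0.02), Myb relatives (-0.12 to 0.01) and C/EBP and PU.1 targets (-0.02 to 0.06).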
